A study of Mus musculus with 8 samples.

Results

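The genes examined here are those of MHC class II antigen presentation. Members were the rows of the count tables that carry 1 of 10 gene symbols, Cd74, H2-Aa, H2-Ab1, H2-Eb1, H2-DMa, H2-DMb1, H2-DMb2, H2-Oa, H2-Ob and Ciita. They make up 11 of the 22756 genes in each library, since Ciita is present as 2 rows. The question was whether all class II genes follow Cd74 across α7-genotype and cigarette smoke (CS).

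RNA-Seq was from distal lung cells of adult mice, male and female, of a more than 90 percent C57BL/6 strain. The α7G mice (Chrna7-IRES-tauGFP) carry a reporter cassette behind the nicotinic α7 receptor gene, and the α7E260A:G mice (Chrna7-E260A-IRES-tauGFP) carry the same cassette and a point mutation that restricts calcium signaling through the receptor, so the controls also hold the reporter. Both genotypes received either room air (control) or side-stream CS on 5 days per week for 4 months. Lungs were lavaged and dissected, and cells binding anti-CD45 beads were removed to enrich epithelium. There was 1 male and 1 female library in each of the 4 groups, so the spread within a group is that between a male and a female library. The number of mice behind a library is not stated, so the p-values measure the spread between libraries only.

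The libraries held between 8020726 and 10944100 counts on coding sequence (CDS), and 3 counts, taken as the floor, equal 0.274 to 0.374 RPM (CDS counts scaled to a library total of 1000000). This floor covers counting error only. Chrna7 itself had 0 counts in 7 libraries and 4 in the male α7E260A:G control, too few to check the genotypes. Leukocyte RNA was present in every library despite the depletion. Ptprc, which encodes CD45, lay between 191 and 480 RPM per kb of CDS, and the epithelial marker Epcam between 83.1 and 225. The libraries also differed in how abundance depends on CDS length, with slopes of log2 RPM on log2 CDS length from -0.27 in the female to 0.37 in the male α7E260A:G control.

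MHC class II molecules present peptides from the endosomal pathway to CD4 T cells. They are pairs of an alpha and a beta chain, H2-Aa with H2-Ab1 for I-A, and H2-Eb1 as the beta chain of I-E. The invariant chain, Cd74, binds the new pair, blocks its groove and guides it to the endosome, where H2-M (H2-DMa with H2-DMb1 or H2-DMb2) exchanges the remaining fragment for peptide, and H2-O (H2-Oa with H2-Ob) restrains H2-M. Ciita is the transactivator that most class II genes require. It binds no DNA itself and is recruited by the RFX, CREB and NF-Y factors on the X and Y boxes of these promoters. B cells, dendritic cells and macrophages are the classical sources in lung, and ATII cells also carry class II, while H2-O is known chiefly from B cells.

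In the mm9 build the 8 H2 members lie on chromosome 17 in the order H2-Oa (34229285 to 34232179), H2-DMa (34272127 to 34276046), H2-DMb2 (34280252 to 34288498), H2-DMb1 (34290017 to 34297168), H2-Ob (34375848 to 34390850), H2-Ab1 (34400154 to 34406363), H2-Aa (34406276 to 34424772) and H2-Eb1 (34442828 to 34453144). H2-Aa is on the minus strand and the others are on the plus strand. The ends of H2-Ab1 and H2-Aa overlap, but no CDS base of any member overlaps the CDS of another gene. The CDS is 3824 bases long in Ciita and 750 to 922 bases in the other 9. H2-DMb1 and H2-DMb2 are close copies. Of the 737 words of 50 bases in the CDS of each, 353 (47.9%) occur in the other, so reads may be lost or split between them, and no other member shared such a word with any gene. The second Ciita row (ENSMUSG00000075404.4) had at most 7 counts in a library and was not tested.

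Promoter sequences from RefSeq (build GRCm38.p6, 250 bases before to 50 after a gene start) are shown because the members were set against each other for moving together, and this is the sequence that Ciita and its partners are known to act through. The table matched 7 of the 10 symbols, all on chromosome 17, and had no entry for Cd74, H2-Ab1 or Ciita. The stretches below run 5′ to 3′ on the strand of the gene and end 20 bases after GATTGG. Capitals mark GATTGG (the Y box core on this strand), CNAGNAAC (a word in the X box region) and TGACGTCA (the X2 box core). The words ctggcaac in H2-Aa and ctattaac in H2-DMb2 each differ from CNAGNAAC by a single base and are not marked. GATTGG and CNAGNAAC were chosen after the sequences had been read.
H2-Aa, chr17:34287847-34287966, minus strand: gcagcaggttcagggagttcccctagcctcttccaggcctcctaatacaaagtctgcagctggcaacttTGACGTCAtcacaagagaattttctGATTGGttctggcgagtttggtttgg
H2-Eb1, chr17:34305713-34305832, plus strand: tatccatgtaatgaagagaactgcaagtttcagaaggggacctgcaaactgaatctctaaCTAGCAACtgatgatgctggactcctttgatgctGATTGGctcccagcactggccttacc
H2-DMb1, chr17:34153035-34153154, plus strand: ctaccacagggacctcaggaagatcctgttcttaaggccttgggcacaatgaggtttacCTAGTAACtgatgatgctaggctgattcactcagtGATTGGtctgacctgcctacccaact
H2-DMb2, chr17:34145064-34145183, plus strand: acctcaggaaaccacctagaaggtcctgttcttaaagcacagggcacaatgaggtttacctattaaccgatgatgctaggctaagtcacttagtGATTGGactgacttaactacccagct
H2-Oa, chr17:34092241-34092360, plus strand: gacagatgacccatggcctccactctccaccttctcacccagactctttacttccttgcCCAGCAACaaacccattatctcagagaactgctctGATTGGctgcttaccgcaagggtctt
H2-Ob, chr17:34238753-34238872, plus strand: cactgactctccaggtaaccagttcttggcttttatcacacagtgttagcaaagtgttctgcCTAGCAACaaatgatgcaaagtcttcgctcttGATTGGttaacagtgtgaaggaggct

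Searched on both strands, CCAAT or its reverse complement ATTGG was in 7 of the 8 windows of these genes and in 37.4% of all 32851 windows. GATTGG, which contains ATTGG, was in the same number and in 16.1% of all windows. On the strand of the gene, it began 44 to 91 bases before the start in the 6 genes shown, and 199 bases before it in 1 of 2 windows of H2-DMa. CNAGNAAC was in 4 windows (H2-DMb1, H2-Eb1, H2-Oa and H2-Ob), 24 to 27 bases before GATTGG, and in 13.8% of all windows. TGACGTCA was in the window of H2-Aa alone among these genes and in 1.79% of all, ACAGATG was in 2 windows (H2-Aa and H2-Oa) and in 5.01% of all, and TGCGTCA was in none and in 2.12% of all. GATTGG is thus in genes whose counts kept a narrow ratio to Cd74 (H2-Aa, H2-Eb1) and in genes with a wider one (H2-Oa, H2-Ob, H2-DMb2).

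Levels covered a wide range. As the mean over 8 libraries, Cd74 had 4003 RPM per kb of CDS, H2-Aa 2170, H2-Ab1 1418 and H2-Eb1 1287. H2-DMa followed with 391 RPM per kb, while H2-Ob, H2-DMb1 and H2-DMb2 had 150, 142 and 139, with SD of 69.7, 36.2 and 65.1 that overlap widely. H2-Oa had 83.9 and Ciita 17.4 RPM per kb, the lowest of the 10. The 11 rows together took from 0.339% of all counts in the male α7E260A:G CS library to 1.27% in the male α7G control. All 10 members had their lowest group mean in α7E260A:G CS.

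**Figure D1:**
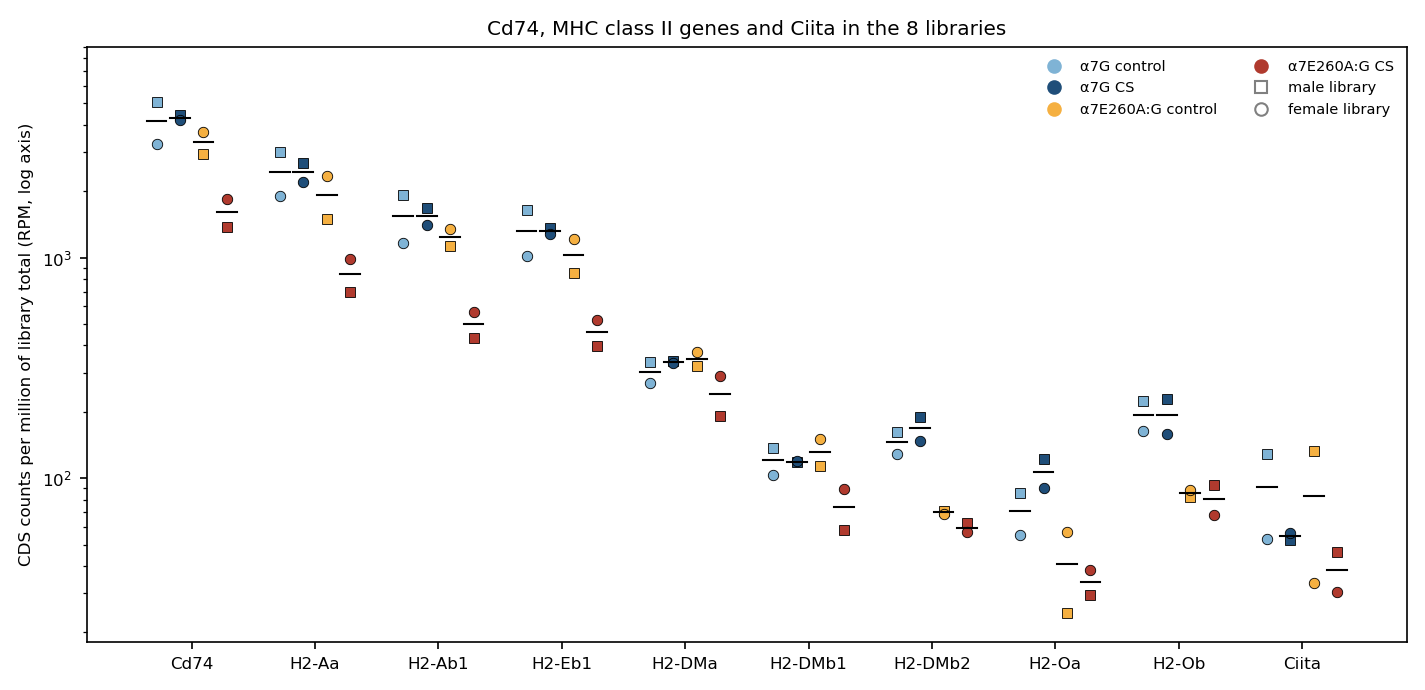
RPM of the 10 genes on a log axis in each library, with groups by color, squares for male and circles for female libraries, and a bar at the mean of 2. Cd74 and the 3 class II chains have both α7E260A:G CS libraries below the other 6, while H2-DMb2 and H2-Ob have all 4 α7E260A:G libraries below all 4 of α7G.

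For the invariant chain and the class II chains, the 2 libraries of CS-exposed α7E260A:G mice stood apart from the other 6. Cd74, on chromosome 18 from 60963502 to 60972300, was at 5051 (male) and 3253 RPM (female) in α7G control and at 4422 and 4191 in α7G CS. In α7E260A:G it was at 2952 and 3705 RPM in controls and at 1380 and 1849 after CS. The controls of both genotypes overlapped, the α7G CS libraries lay within the range of their controls, and both α7E260A:G CS libraries were below all others.

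H2-Aa, the I-A alpha chain, showed the same order of groups. It was at 3000 and 1904 RPM in α7G control, 2670 and 2208 in α7G CS, 1494 and 2337 in α7E260A:G control, and 697 and 983 in α7E260A:G CS. CS-exposed α7E260A:G libraries thus had 0.467 (male) and 0.421 (female) times the control RPM, against 0.89 and 1.16 times in α7G. H2-Ab1, its beta chain partner, was at 1926 and 1158 RPM in α7G control and 1679 and 1405 in α7G CS. In α7E260A:G it was at 1125 and 1344 RPM in controls and at 430.4 and 565 after CS, ratios of 0.383 and 0.421. H2-Eb1, the I-E beta chain, was at 1639 and 1012 RPM in α7G control, 1367 and 1275 in α7G CS, 851 and 1212 in α7E260A:G control, and 396 and 519 in α7E260A:G CS. The α7G control libraries of all 3 chains were further apart than those of α7G CS, with the male higher.

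None of these 4 passed the test of all genes. With CS in α7E260A:G the log2 fold-changes were -1.12 ± 0.38 (SE) for Cd74, -1.28 ± 0.43 for H2-Aa, -1.38 ± 0.37 for H2-Ab1 and -1.26 ± 0.39 for H2-Eb1, each with an adjusted p of 0.9997 (edgeR, Benjamini-Hochberg over 13637 genes). Of the 10 members 0 passed by edgeR, where 1 gene of all (0.00733%) did, and 0 passed by DESeq2, which called 0.257% of all genes. At an unadjusted p under 0.05, 5 members (these 4 and H2-DMb1) were lower, against 1.62% of all genes. The median over the 10 members was -1.01 on the log2 scale and over all genes -0.02. In α7G, 9 of 10 members had a small positive log2 fold-change, from 0.13 (H2-DMb1) to 0.73 (H2-Oa), and Ciita had -0.58 ± 0.55. There, 0 members and 0% of all genes passed by edgeR, and 0 members and 0.183% of all genes by DESeq2. Also 0 members reached an unadjusted p under 0.05, where 915 of the 13637 genes did. When CDS length entered the fit as an offset, 7 of the 9 positive values were negative, between -0.21 and -0.04, so no direction can be given in α7G.

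The CS response of α7E260A:G minus that of α7G was negative for all 10 members, with a median of -1.08 on the log2 scale and of 0.02 over all genes. It was -1.32 ± 0.54 for Cd74, -1.53 ± 0.52 for H2-Ab1, -1.42 ± 0.61 for H2-Aa and -1.40 ± 0.55 for H2-Eb1, all with an adjusted p of 0.99961 (edgeR). By edgeR 0 members and 0% of all genes passed, by DESeq2 0 members and 0.0513% of all genes, and 4 members had an unadjusted p under 0.05 in this direction against 1.28% of all genes. Over both genotypes together, CS gave 0 members and 0% of all genes by edgeR, and 0 members and 0.499% of all genes by DESeq2. Only H2-Ab1 was then under an unadjusted p of 0.05, at -0.62 ± 0.26, where 609 of the 13637 genes were lower at that threshold.

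**Figure D2:**
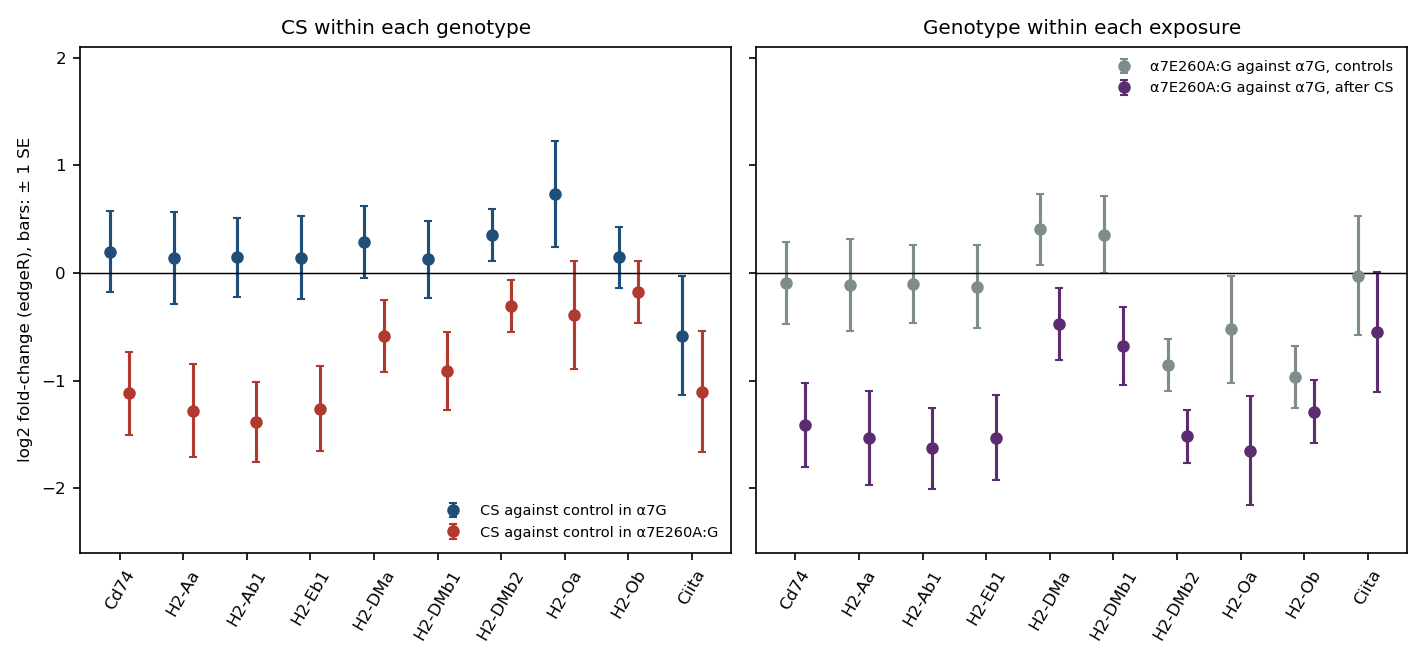
Log2 fold-changes of the 10 genes by edgeR with bars of 1 SE, for CS within each genotype (left) and for genotype within each exposure (right). With CS, Cd74 and the 3 chains are between -1.12 and -1.38 in α7E260A:G and between 0.14 and 0.20 in α7G, while in controls only H2-DMb2 and H2-Ob are more than 2 SE below 0 between genotypes.

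The comparison of genotypes split the genes in another way. In controls, Cd74, H2-Aa, H2-Ab1 and H2-Eb1 differed by -0.13 to -0.10 on the log2 scale with SE of 0.37 to 0.43, whereas H2-DMb2 (-0.85 ± 0.24) and H2-Ob (-0.97 ± 0.29) were lower in α7E260A:G. Their adjusted p were 0.593 and 0.600 (edgeR), and these 2 were the members with an unadjusted p under 0.05, against 3.22% of all genes lower at that threshold. By edgeR 0 members and 0.00733% of all genes passed, and by DESeq2 0 members and 0.814%. After CS all 10 members were lower in α7E260A:G than in α7G, with a median of -1.47, and 7 had an unadjusted p under 0.05 (3.44% of all genes were lower at that threshold). Here 0 members and 0.0147% of all genes passed by edgeR. DESeq2 called 5 members lower, Cd74 (adjusted p = 0.04), H2-Ab1 (0.00884), H2-Eb1 (0.0353), H2-DMb2 (0.00021) and H2-Ob (0.0239), with 0.308% of all genes called lower.

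H2-M is the exchange factor for peptide. Its alpha chain, H2-DMa, varied least of the 10 genes, with 336 and 270 RPM in α7G control, 339 and 332 in α7G CS, 322 and 371 in α7E260A:G control and 192 and 289 in α7E260A:G CS. The groups overlap except that the male α7E260A:G CS library is the lowest. With CS in α7E260A:G the log2 fold-change of H2-DMa was -0.59 ± 0.33, and over both exposures the genotype difference was -0.03 ± 0.24 (adjusted p = 0.984, edgeR). H2-DMb1 was at 137 and 103 RPM in α7G control, 118 and 120 in α7G CS, 114 and 150 in α7E260A:G control, and 58.2 and 89.6 in α7E260A:G CS, again the lowest pair.

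H2-DMb2, the other beta chain, had a different pattern. It was at 162 and 128 RPM in α7G control and at 189 and 148 in α7G CS. In α7E260A:G it was at 71.3 and 69.1 RPM in controls and at 62.6 and 56.7 after CS. All 4 α7E260A:G libraries were below all 4 of α7G, and CS and control of the same genotype lay close together. The genotype difference over both exposures was -1.18 ± 0.17 (adjusted p = 0.0734, edgeR), and the exact two-sided permutation p was 0.0286, the smallest that 4 against 4 libraries can give. The ratio of H2-DMb2 to H2-DMb1 was 1.18 to 1.60 in α7G and 0.461 to 1.07 in α7E260A:G, without overlap (exact permutation p = 0.0286), and this ratio rests on the reads that tell these copies apart. H2-DMa per H2-DMb1 and H2-DMb2 together was 1.10 to 1.24 in α7G and 1.59 to 1.98 in α7E260A:G (exact permutation p = 0.0286). Reads split between the copies do not alter this ratio, whereas reads lost because they match both copies would raise it.

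H2-O is the inhibitor of H2-M. Its beta chain, H2-Ob, was at 223 and 163 RPM in α7G control, 229 and 158 in α7G CS, 82 and 88.6 in α7E260A:G control, and 93.3 and 68.4 in α7E260A:G CS. As for H2-DMb2 the genotypes did not overlap and the exposures did. The genotype difference was -1.13 ± 0.21 (adjusted p = 0.11, edgeR; exact permutation p = 0.0286). The alpha chain, H2-Oa, was at 85.9 and 55.5 RPM in α7G control and 122 and 90.4 in α7G CS. In α7E260A:G it was at 24.4 and 57 RPM in controls and 29.4 and 38.3 after CS, so that the female α7E260A:G control overlaps the female α7G control. H2-Oa differed by -1.09 ± 0.35 between genotypes (adjusted p = 0.277, edgeR).

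Over both exposures all 10 members were lower in α7E260A:G, with a median of -0.83 on the log2 scale and of 0.03 over all genes. By edgeR 0 of the 10 and 0.0953% of all genes passed, and 7 members had an unadjusted p under 0.05 with 5.49% of all genes lower at that threshold. The members that did not were H2-DMa, H2-DMb1 and Ciita. The genotypes did not overlap, with α7E260A:G lower, for 2 members (H2-DMb2 and H2-Ob) and for 5.54% of all genes. DESeq2 called H2-DMb2 (adjusted p = 7.8e-06) and H2-Ob (0.00061), with 1.49% of all genes called lower. With the offset for CDS length edgeR called H2-DMb2 (0.00898), H2-Ob (0.0159) and H2-Oa (0.0436), with 1.34% of all genes called lower. Leaving out the male α7E260A:G control gave 2 members called, with 1.15% of all genes called lower, and leaving out the female gave 4 members with 1.76%, so that calls over all genes rose as well.

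Ciita, the transactivator, on chromosome 16 from 10480237 to 10527657, varied more between the sexes of a control group than between groups. It was at 128 RPM in the male and 53.2 in the female α7G control, and at 52.4 and 56.5 in α7G CS. In α7E260A:G it was at 133 RPM in the male and 33.4 in the female control, and at 46.3 and 30.4 after CS. Both high libraries were male controls. Ciita has the longest CDS of the 10, and the slopes of abundance on CDS length were 0.179 and 0.372 in the male α7G and α7E260A:G controls and 0.06 and -0.27 in the female ones. The male α7E260A:G CS library had a slope of 0.181 and Ciita at 46.3 RPM, and the other 3 CS libraries had slopes from -0.20 to -0.14. The part of CDS length in the Ciita values was not tested. With CS in α7E260A:G the log2 fold-change was -1.10 ± 0.56, and -0.80 ± 0.33 with the offset for CDS length (adjusted p = 0.9997 and 0.983, edgeR). In α7G the same values were -0.58 ± 0.55 and -0.06 ± 0.33.

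Counts were next set relative to the Cd74 count of the same library. H2-Aa was 50.5 to 63.1% of Cd74, H2-Ab1 30.6 to 38.1% and H2-Eb1 28.1 to 32.7%. The SD of their log2 ratio to Cd74 over 8 libraries was 0.12, 0.13 and 0.08, while the SD of their own log2 RPM was 0.73, 0.75 and 0.72. Of 13636 genes these 3 had the ratios to Cd74 with the smallest SD, and the median gene had 0.79. H2-Ab1 was lowest against Cd74 in both α7E260A:G CS libraries (31.2 and 30.6%), yet neither genotype nor CS separated the ratio of any of the 3 (exact permutation p from 0.0857 to 0.429). H2-Aa per H2-Ab1 was 1.33 to 1.74 and H2-Eb1 per H2-Ab1 0.757 to 0.921, and the lowest of both was the male α7E260A:G control.

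The other members departed from Cd74. H2-DMa was 6.66 to 8.30% of Cd74 in α7G, 10.9 and 10.02% in α7E260A:G control, and 13.9 and 15.6% in α7E260A:G CS. H2-DMb1 was 2.67 to 3.18% in α7G and 3.86 to 4.85% in α7E260A:G. Both ratios were higher in all 4 α7E260A:G libraries, by 0.71 and 0.57 on the log2 scale (exact permutation p = 0.0286 each). Of all genes, 7.13% had a ratio to Cd74 that was higher in α7E260A:G without overlap, and 0.103% had one that was lower without overlap. H2-DMb2, H2-Oa and H2-Ob had ratios that overlapped between genotypes, with differences of -0.40, -0.41 and -0.34 (exact permutation p = 0.257, 0.314 and 0.314). They were lowest in the α7E260A:G controls, where H2-DMb2 was 2.41 and 1.86% and H2-Ob 2.78 and 2.39% of Cd74, against 4.54 and 3.07% and 6.76 and 3.70% after CS. H2-Oa was the member whose ratio did not overlap between exposures, higher with CS by 0.71 (exact permutation p = 0.0286, with 2.29% of all genes alike). Ciita was 0.903 to 4.50% of Cd74, with an SD of 0.79 on the log2 scale. These p-values are not adjusted over the 9 genes and 2 contrasts, and 4 against 4 libraries cannot give a smaller one.

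**Figure D3:**
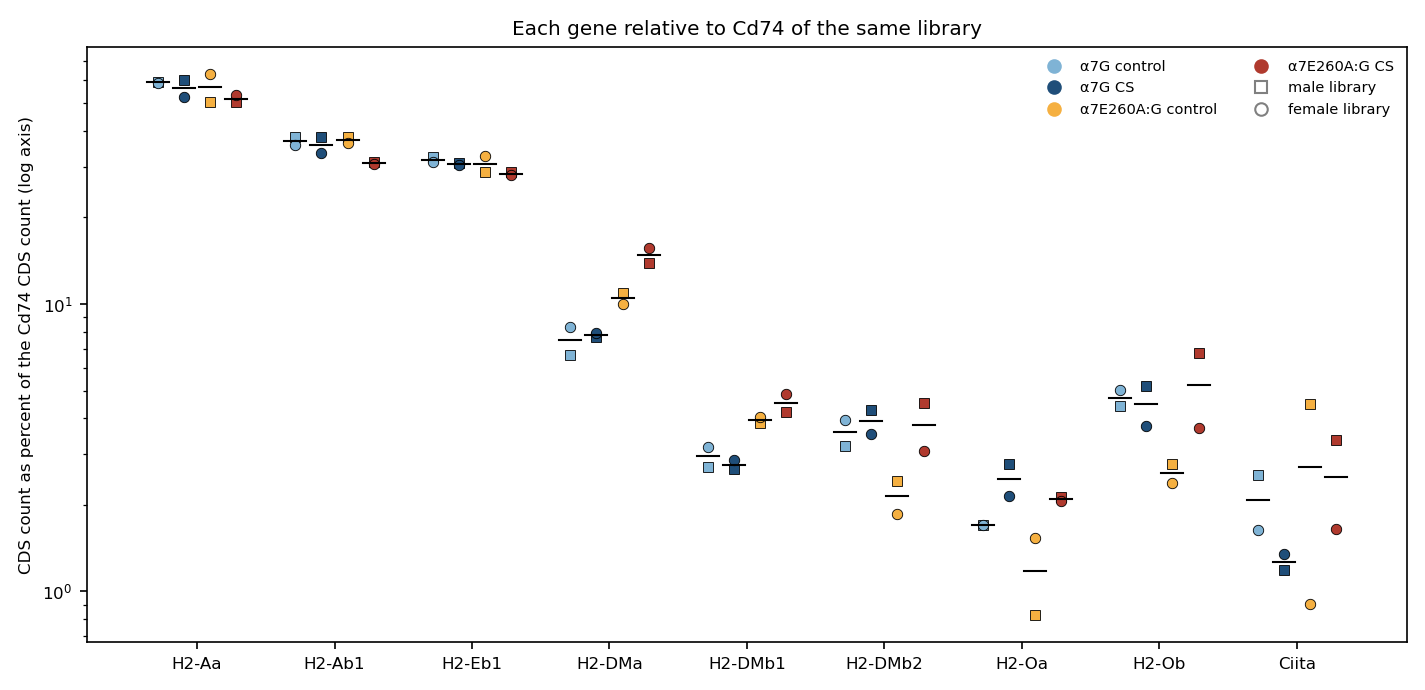
CDS count of 9 genes as a percent of the Cd74 count in the same library, on a log axis, with groups by color, squares for male and circles for female libraries, and a bar at the mean of 2. H2-Aa, H2-Ab1 and H2-Eb1 stay within narrow bands, while H2-DMa climbs from 6.66 to 8.30% in α7G to 13.9 and 15.6% in α7E260A:G CS.

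Likeness to Cd74 was also measured as the correlation of log2(RPM + 0.5) over the 8 libraries, for 13636 genes. Pearson's r was 0.998 for H2-Eb1, 0.995 for H2-Ab1 and 0.992 for H2-Aa, ranks 1, 2 and 3 of all genes, with Spearman's rho of 1.00, 1.00 and 0.976. Their exact permutation p were 2.48e-05, 2.48e-05 and 4.96e-05 and the Benjamini-Hochberg adjusted p over all genes 0.169, 0.169 and 0.225. For H2-DMb1 r was 0.897 (rho 0.810), for H2-DMa 0.828 (0.762), for H2-DMb2 0.796 (0.881), for H2-Oa 0.777 (0.857) and for H2-Ob 0.730 (0.738), with exact permutation p from 0.00315 to 0.0363 and adjusted p from 0.612 to 0.874. Ciita had r of 0.415 (rho 0.405, exact permutation p = 0.297, adjusted p = 1.00). The exact p was thus under 0.05 for 8 of 9 members, against 2.12% of all genes with a positive r, and 0 passed adjustment.

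The correlation rests in part on the 2 α7E260A:G CS libraries, which are those farthest from the median of Cd74. Without them (n = 6) r was 0.987 for H2-Eb1, 0.970 for H2-Ab1 and 0.9502 for H2-Aa, but 0.433 for H2-DMa and 0.475 for H2-DMb1. Among those 6 libraries H2-Oa had r of 0.857, H2-Ob 0.760, H2-DMb2 0.724 and Ciita 0.02. The relation of H2-DMa and H2-DMb1 to Cd74 over libraries of both genotypes thus did not hold without these 2 (exact permutation p = 0.414 and 0.343). With the mean of each genotype removed from all 8 libraries, however, H2-DMb1 (r = 0.971) and H2-DMa (r = 0.932) were close to Cd74, at ranks 4 and 9 of all genes after the 3 chains (0.984 to 0.995). H2-DMb2 (0.60), H2-Oa (0.48), H2-Ob (0.26) and Ciita (0.32) then had lower r. Within genotype H2-DMa and H2-DMb1 thus varied with Cd74 and H2-DMb2, H2-Oa and H2-Ob less so, a description that includes the 2 α7E260A:G CS libraries. For Ciita the measure of abundance mattered more. With the trend on CDS length taken out of log2 RPM, its r with Cd74 over 8 libraries was 0.853 in place of 0.415.

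**Figure D4:**
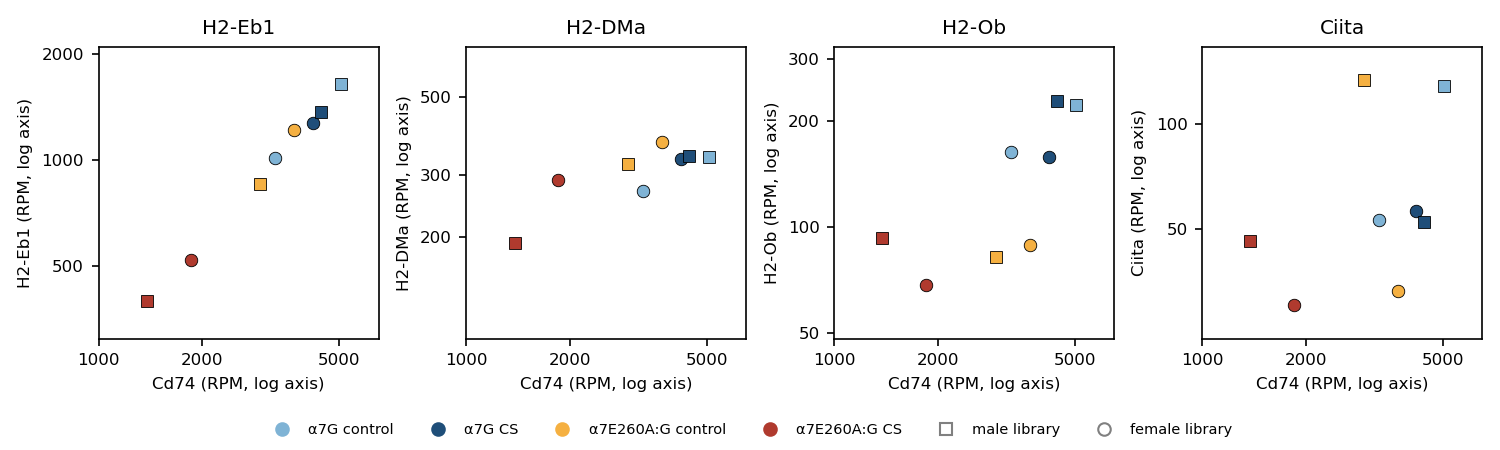
RPM of H2-Eb1, H2-DMa, H2-Ob and Ciita against RPM of Cd74 in the 8 libraries, on log axes, with groups by color, squares for male and circles for female libraries. H2-Eb1 lies along a line (r = 0.998), H2-DMa is lowest in the male α7E260A:G CS library and flat at high Cd74, H2-Ob splits by genotype and Ciita scatters (r = 0.415).

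The genes outside the 10 whose pattern was most like the mean log2 RPM of Cd74 and the 3 chains were ranked among the 7368 genes whose mean count reached 200, as a description. Arl5c came first (r = 0.963 over 8 libraries, 0.910 without the α7E260A:G CS libraries), followed by Ms4a6b (0.933), Ckb (0.928), Cxcr3 (0.926), Kcnn4 (0.917), Ms4a4c (0.911), Adssl1 (0.904), Sp110 (0.902), Il2rg (0.902) and 2610027L16Rik (0.883). They spanned smaller ranges than the chains. Arl5c had 15.7 to 32.6 RPM and Ms4a6b 116 to 154 RPM over the 8 libraries. Cxcr3, a chemokine receptor of activated T cells, and Il2rg, the common gamma chain of cytokine receptors, had r of 0.553 and 0.595 without the 2 α7E260A:G CS libraries.

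Other genes of the pathway were listed by role, and none of them passed edgeR's adjusted test in any of the 7 comparisons, so the values that follow are described by counts at an unadjusted p under 0.05. Between genotypes over both exposures 5.49% of all genes were lower and 5.96% higher at that threshold. With CS in α7E260A:G 1.62% of all genes were lower. Of the 7 factors that bind class II promoters (Rfx5, Rfxank, Rfxap, Creb1, Nfya, Nfyb and Nfyc), 1 was lower in α7E260A:G over both exposures and 0 moved with CS in α7E260A:G. The 4 most abundant differed between genotypes by 0.29 ± 0.22 (Nfya), -0.31 ± 0.26 (Nfyb), 0.04 ± 0.23 (Creb1) and -0.36 ± 0.22 (Rfx5), and DESeq2 called 0 of the 7. Of the 10 inducers of Ciita and interferon gamma signaling genes, 1 was higher in α7E260A:G and 0 lower. This was Sfpi1, an older symbol of Spi1, the myeloid factor PU.1 (0.46 ± 0.18). With CS in α7E260A:G 9 of the 10 had negative values but 0 passed, with Jak1 at -0.33 ± 0.29 and Ifngr1 at -0.33 ± 0.21. Ifng itself, named after its values were seen, averaged 4.52 RPM over the libraries, with -1.26 ± 0.71 in this comparison. Of 16 interferon gamma responsive genes 15 had negative values with CS in α7E260A:G and 3 were lower, with a median of -0.48 against -0.02 over all genes, and DESeq2 called 1, Cxcl9, a chemokine (edgeR -2.67 ± 0.46, adjusted p = 0.90024). Of all genes DESeq2 called 0.257% with CS in α7E260A:G. The median of the 16 interferon gamma responsive genes was smaller in size than that of the 3 chains (-1.28). Between genotypes in controls, 15 of these 16 had positive values in α7E260A:G, with a median of 0.36 against -0.11 for the 3 chains. After CS the medians between genotypes were -0.31 for these genes and -1.53 for the chains.

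Of 11 genes of class II processing and turnover 5 were higher in α7E260A:G over both exposures and 0 lower at an unadjusted p under 0.05, with a median of 0.44, where 5.96% of all genes were higher at that threshold. Ctsd (cathepsin D) was higher by 0.99 ± 0.27, Ctss (cathepsin S, which trims the invariant chain) by 1.06 ± 0.33 and Ctsb by 0.70 ± 0.18, with adjusted p of 0.198, 0.26 and 0.19 by edgeR, and DESeq2 called these 3, with 2.3% of all genes called higher. Ctsh differed by 0.04 ± 0.25. With CS in α7E260A:G none of the 11 was under an unadjusted p of 0.05. Cd44, the partner receptor of Cd74, was higher in α7E260A:G by 0.68 ± 0.17 and called by DESeq2, the only one of 5 ligands and partners with an unadjusted p under 0.05. Of 6 costimulatory genes 2 were higher in α7E260A:G, Cd274 (1.02 ± 0.20) and Cd80 (0.86 ± 0.27, named after its values were seen), and 1 was lower, Cd40 (-1.02 ± 0.21). DESeq2 and the fit with the offset for CDS length called Cd274 and Cd40. Cd274 also counts among the interferon gamma responsive genes. Of 7 tested neighbors in the class II region 1 was lower between genotypes, H2-Eb2 (-1.27 ± 0.32), a class II beta gene, whereas Psmb8, Tap1 and Brd2 differed by -0.06 ± 0.27, -0.19 ± 0.17 and 0.08 ± 0.21. H2-Eb2 was named after its values were seen, and DESeq2 called it, with 1.49% of all genes called lower.

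Markers of cell types that can carry class II differed between the same groups. In bulk samples, fewer cells of a type and less RNA per cell cannot be told apart. The summed RPM of 10 B cell markers, none at 0, was 1609 to 2500 in α7G and 1014 to 1274 in α7E260A:G, with no overlap, with 1014 and 1083 in control and 1274 and 1070 in CS libraries of α7E260A:G. Of the 10 markers 8 were lower in α7E260A:G at an unadjusted p under 0.05 and 0 by edgeR's adjusted p, among the 4 most abundant Cd79a (-1.02 ± 0.26), Cd79b (-0.97 ± 0.29) and Ms4a1 (-0.999 ± 0.206) but not Cd22 (-0.07 ± 0.19). DESeq2 called 5. Of all genes, 5.49% were lower at that unadjusted threshold, 1.49% were called lower by DESeq2 and 5.54% were lower without overlap. The median of the B cell markers was -0.94, beside -1.18, -1.13 and -1.09 for H2-DMb2, H2-Ob and H2-Oa. Relative to the summed B cell markers H2-DMb2 was 6.66 to 7.96% in α7G and 4.91 to 7.03% in α7E260A:G, and H2-Ob 8.12 to 10.1% and 6.39 to 8.18%, so both overlapped (exact permutation p = 0.0571 each). The SD of these log2 ratios over 8 libraries was 0.25 and 0.21, against 0.70 and 0.68 for log2 RPM, and against 0.50 for Cd74 relative to the same markers. H2-Oa was 3.45 to 4.90% of these markers in α7G and 2.31 to 5.26% in α7E260A:G, with a wider SD of 0.44 against 0.81 for its log2 RPM (exact permutation p = 0.4). The part of B cells in the lower H2-DMb2 and H2-Ob was not tested.

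The 11 dendritic cell markers, none at 0, summed to 264 to 440 RPM in α7G, 311 to 324 in α7E260A:G control and 195 to 221 in α7E260A:G CS. Ccr7 was by far the most abundant of them (mean of 160 RPM) and weighs most in this sum. Its group means were 187 and 209 RPM in α7G control and CS, and 127 and 117 in α7E260A:G control and CS. Batf3, Ccl17, Ccl22, Clec9a and Itgae had their lowest group mean in α7G CS, and the other markers in α7E260A:G CS. With CS, 5 of the 11 were lower in α7E260A:G and 3 in α7G at an unadjusted p under 0.05, with medians of -0.79 and -0.95, where 1.62% and 4.04% of all genes were lower, and with 0 called by edgeR or DESeq2 within a genotype. Both medians of the dendritic cell markers were negative. For Cd74 and the 3 chains no direction with CS can be given in α7G. Relative to the summed dendritic cell markers, H2-Ab1 was 363 to 532% in α7G and 195 to 433% in α7E260A:G. Alveolar macrophage markers summed to 9416 to 16875 RPM in α7G and 23170 to 38828 in α7E260A:G, higher without overlap. Of the 11 markers 7 were higher at an unadjusted p under 0.05 (5.96% of all genes) and 7 were called higher by DESeq2 (2.3% of all genes). ATII markers summed to 20106 to 30674 RPM in α7G and 4767 to 14836 in α7E260A:G, lower without overlap, with 8 of 9 lower at an unadjusted p under 0.05 and 3 by DESeq2. Of all genes, 5.49% were lower at that threshold, 1.49% were called lower by DESeq2 and 5.54% were lower without overlap. The sums of alveolar macrophage and of ATII markers overlapped between control and CS of α7E260A:G. The 8 interstitial macrophage and monocyte markers summed to 1369 (male) and 915 RPM (female) in α7E260A:G control and to 742 and 626 after CS, with 2 of 8 lower at an unadjusted p under 0.05 (median -1.23). In α7G they summed to 1298 and 570 RPM in control and to 566 and 528 after CS, with 4 of 8 lower (median -0.77), so these markers had negative medians with CS in both genotypes. Epithelial markers had 3 of 5, endothelial markers 3 of 6 and the leukocyte list 0 of 6 lower in α7E260A:G over both exposures at that threshold. In the leukocyte list 2 were higher. Of all genes, 5.49% were lower and 5.96% higher. The leukocyte list summed to 5902 to 7520 RPM in α7G and 5851 to 7099 in α7E260A:G. The part of each of these cell types in the class II values was not tested.

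**Figure D5:**
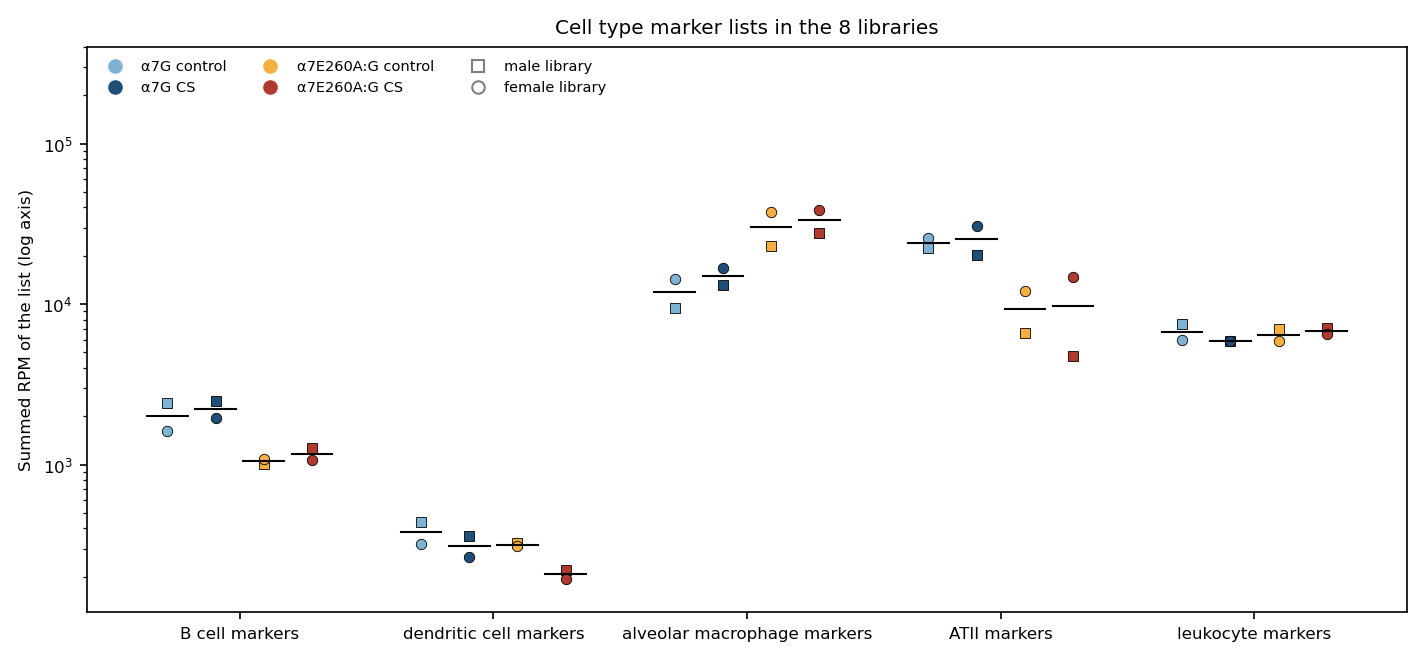
Summed RPM of 5 marker lists in each library on a log axis, with groups by color, squares for male and circles for female libraries, and a bar at the mean of 2. B cell and ATII markers are lower and alveolar macrophage markers higher in all 4 α7E260A:G libraries. The sum of dendritic cell markers, of which Ccr7 is the most abundant, is lowest in the 2 α7E260A:G CS libraries.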

How the data were processed

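Cells were RNA-sequenced by the authors from 8 stranded poly(A) libraries, aligned with STAR to mm9 (NCBIM37) and counted on CDS with htseq-count and GENCODE M1 (versions not given in the sources used here). The deposited values are raw CDS counts, unnormalized. RPM were computed from library totals (8020726 to 10944100). The 13637 genes whose mean count reached 10 were tested with edgeR 4.0.16 (glmQLFit, glmQLFTest, TMM, R 4.3.3, limma 3.58.1) in a model of 4 groups without sex, Benjamini-Hochberg at 0.05. SE were derived from log2 fold-change and F. Ratios used counts plus 0.5, and single values exact permutation (70 arrangements, or 40320 pairings, SciPy 1.17.1). Tests were checked on simulated counts. The paper had left histocompatibility genes out.

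Alternatives were DESeq2 1.42.0, library size scaling, other filters, a CDS length offset (lowess, span 0.667), sex as a replicate block, other pseudocounts and leaving out libraries. Members, lists and the named genes (the 10, the 10 most alike, the 4 most abundant of each list) were chosen with earlier results of these data known. The group of each library was taken from its genotype, protocol and sex labels. One gene that the naming rule selects from a list is not reported here.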

Additional observations from a re-analysis of the deposited data

Results flagged for a closer look

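H2-DMa had 270 RPM in the female α7G control, far below the other 3 α7G libraries (332 to 339 RPM), with a gap of 0.913 of the range of the 4. Ciita had 128 RPM in the male α7G control, far above the other 3, with a gap of 0.915 of the range. These were 2 of 40 groups of 4 libraries checked on log2 RPM, and chance alone gives about 1 in 20.

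H2-DMb2 was higher with CS in both sexes of α7G and lower in both sexes of α7E260A:G. H2-DMa was lower in both sexes of α7E260A:G, while in α7G it was higher in the female and nearly unchanged in the male. Over the alternatives run, the log2 fold-change of H2-DMa with CS in α7G was -0.047 to 0.41. The ratios of CS to control for H2-DMa were 1.01 and 1.23 in α7G and 0.596 and 0.779 in α7E260A:G, and for H2-DMb2 they were 1.17 and 1.15 against 0.878 and 0.822. The difference between the responses was -0.88 on the log2 scale for H2-DMa and -0.66 for H2-DMb2, with unadjusted p of 0.101 and 0.088 and adjusted p of 0.99961 by edgeR.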

How the results depend on the processing

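Over the alternatives run, 124 counts stayed equal or close to the reported count and 16 moved. Of the single-gene values, 672 kept their direction and side of the threshold or, for group means, stayed within 1 SD. A further 43 changed sign, 20 passed a threshold, 3 no longer did and 4 group means moved by more than 1 SD. Where they changed, the cause was not tested. Counts of members called by edgeR over both exposures between genotypes, 0 as reported, were 2 with DESeq2, 1 with no low-count filter, 3 with the CDS length offset, 4 with the replicate block of sex and the offset together, and 0 to 4 leaving out 1 library (2 without the male and 4 without the female α7E260A:G control). After CS, in place of 0, they were 5 with DESeq2, 1 with the offset and 2 with block and offset. The replicate block alone called 0 members (H2-DMb2 adjusted p = 0.0519 by edgeR) and 43 genes of all. Same-sex libraries are not known to share a batch. Their deviations correlated with r from 0.459 to 0.759 among α7G control, α7E260A:G control and α7E260A:G CS. In pairs with α7G CS r was from -0.0042 to 0.116. Sex was not taken as a pairing, so the deviation by sex shared among those groups was not modeled in the main fit. Over all genes the genotype count of 13 over both exposures became 516 with DESeq2, 69 with no low-count filter, 8 with a mean count of 200, 485 with the offset and 711 with block and offset. The genotype count over all genes after CS, 2 in the main fit, became 145 with DESeq2, 40 with the offset and 98 with block and offset. Calls over all genes thus rose there as well.

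CS in α7G had no stable sign. With library size scaling H2-Aa was -0.0078, H2-Ab1 -0.00021, H2-Eb1 -0.0048 and H2-DMb1 -0.017 on the log2 scale, where the median of all genes was -0.14. With the offset H2-Aa was -0.14, H2-Ab1 -0.16, H2-Eb1 -0.19, H2-DMa -0.044, H2-DMb1 -0.21, H2-Ob -0.11 and Cd74 -0.11. With block and offset they were -0.15, -0.14, -0.19, -0.047, -0.22, -0.11 and -0.10, and Ciita was 0.0037. Leaving out 1 library gave H2-Aa -0.12 to 0.45, H2-Ab1 -0.15 to 0.51, H2-Eb1 -0.14 to 0.48, H2-DMb1 -0.030 to 0.30, H2-Ob -0.16 to 0.36, Cd74 -0.054 to 0.50 and Ciita -1.06 to 0.13. Leaving out 1 library also turned the sign of the genotype difference of H2-DMa (-0.26 to 0.14), H2-DMb1 (-0.39 to 0.023) and Ciita (-0.81 to 0.073), and of CS in α7E260A:G for H2-Oa (-0.97 to 0.63) and H2-Ob (-0.39 to 0.10).

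The members whose ratio to Cd74 differed between genotypes by exact test, 2 as reported, numbered 1 to 4 leaving out 1 library (1 without the male α7G control or the male α7G CS library, 4 without the male α7E260A:G CS library). The CS difference of that ratio was -0.10 to 0.19 for H2-DMb1 and -0.62 to 0.15 for Ciita leaving out 1 library, and 0.27 for Ciita with length-corrected log2 RPM. The members correlated with Cd74 at an exact permutation p under 0.05, 8 as reported, were 5 with genotype means removed and 4 without the 2 libraries farthest from the median of Cd74. No share of all genes is given under these alternative settings, for the ratios or the correlations, so these counts cannot be read against all genes. Depth is not a limit for the members, since the lowest, H2-Oa and Ciita at 24.4 and 30.4 RPM, lie far above the floor of 3 counts.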
